A study of Homo sapiens with 16 samples.

Results

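The comparison described here set the myeloid leukaemia line U937 against the myeloid leukaemia line KG1A, both treated with NEL at 10 µM. Its members were the genes of the deposited count table that passed a low-count filter within these 8 libraries, 15602 of 34618 genes, and the libraries were 8 of 16. The groups were KG1A with NEL, U937 with NEL, and the same lines with the vehicle DMSO, 4 libraries each. All cells grew in RPMI medium with dialyzed serum, and polyadenylated RNA was sequenced. No treatment time is labelled. Nothing in the labels says whether libraries 1 to 4 are separate cultures, so each p-value below refers to library-to-library spread, possibly technical. Within a group, libraries 1 and 3, and 2 and 4, differed little (chi-square per degree of freedom of their counts 1.26 to 1.98 over 8 pairs) and the other pairs more (3.88 to 8.47 over 16 pairs). Libraries of 1 parity may therefore share a source, which would leave 2 independent samples per group, and the calls lost when they are summed so are given beside the gene. Each line is 1 established line, so a line difference cannot be told apart from a difference between donors or culture histories.

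KG1A is a CD34-positive line arrested at an immature, progenitor-like stage, and U937 is a promonocytic line. The labels do not spell out NEL, and it is read here as nelarabine because the published study is known. Nelarabine is a prodrug of the guanosine analogue ara-G, which deoxycytidine kinase and deoxyguanosine kinase phosphorylate, and whose triphosphate is built into DNA and blocks its synthesis. The comparison asks which differences between the lines remain, close or open under the drug.

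Total counts ran from 10641567 to 11777684 per library, so a count of 0 in 1 library allows up to 0.255 to 0.282 CPM (reads per 1e6 reads of the library), for counting error only. All CPM values of single genes below are scaled by the library factors of the fit. Summed levels of marker lists are scaled by library totals alone. The first principal component of the 8 NEL libraries held 98.9% of the variance and separated the lines. The second held 0.492% and separated the odd-numbered from the even-numbered libraries in both lines. In bulk RNA, fewer cells of a type and less RNA per cell cannot be told apart.

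Markers of each line's stage stayed apart under the drug. Below, CPM values with an error are mean ± SD (n = 4) and log2 values with an error are estimate ± standard error (SE). CD34, the surface marker of blood progenitors (chr1:208057594-208084747 in the files' build, GRCh37), stood at 1035, 895, 1027 and 947 CPM in the 4 KG1A libraries with NEL and at 1.04, 1.19, 0.783 and 0.339 CPM in those of U937. Every KG1A library was far above every U937 library. The line difference, given throughout as log2 of U937 over KG1A, was -10.17 ± 0.14 with NEL and -11.34 with DMSO, and the change between these did not pass the test (edgeR quasi-likelihood, adjusted p = 0.061). IRF8, a transcription factor of the monocyte lineage (chr16:85932409-85956215), stood at 298, 307, 282 and 312 CPM in U937 with NEL, while KG1A with NEL held 1 read in 4 libraries. The summed level of 33 stem and progenitor markers was 4381 to 4528 CPM in KG1A and 697 to 715 CPM in U937. The summed level of 51 monocyte and macrophage markers was 138 to 143 CPM in KG1A and 1878 to 1962 CPM in U937. CD14 and MPO, common markers of monocytes and of granules, held 0 to 7 reads per library in every group and were not tested.

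Markers of other blood lineages were present in both lines. The summed level of 23 T and NK markers was 590 to 623 CPM in KG1A and 288 to 354 CPM in U937 with NEL, and that of 19 B markers was 904 to 925 and 86.5 to 95.5 CPM. Of the T and NK markers, CD8B was at 0 in both lines with NEL, and CD7, CD28, LCK, TRBC1, TRBC2 and KLRD1 were at 0 in U937. The 23 erythroid and megakaryocyte markers summed to 599 to 636 CPM in KG1A and 30.9 to 37.0 CPM in U937, with the globin genes HBA1, HBA2 and HBB at 0 in both lines. The 14 mast cell, basophil and eosinophil markers summed to 182 to 205 CPM in KG1A and 500 to 644 CPM in U937, with FCER1A at 0 in both. The part of these markers in the line differences was not tested.

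With NEL, 13305 of the 15602 members differed between the lines (85.3%, edgeR quasi-likelihood test, adjusted p under 0.05), 6611 higher in U937 (42.4%) and 6694 higher in KG1A (42.9%). In 12574 members (80.6%) the 4 libraries of one line did not overlap with those of the other. With DMSO, 13473 of the same genes differed (86.4%), 7158 higher in U937 and 6315 higher in KG1A. The lean to U937 with DMSO depends on the library factors, since DESeq2 size factors gave 6726 and 6728. At least 2-fold differences made up 42.6% of members with NEL and 44.9% with DMSO. The median size of the difference was 0.81 on the log2 scale with NEL and 0.87 with DMSO. Since most genes differed between the lines with either treatment, the count called with NEL is itself the background against which a group of genes is read below.

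The line difference changed between DMSO and NEL in 7608 members (48.8%), in 3390 towards U937 (21.7%) and in 4218 towards KG1A (27.0%). This split depends on the library factors: with DESeq2 size factors 4134 members changed towards U937 and 3458 towards KG1A, so the share towards U937 was 44.6% in the first and 54.5% in the second. Changes of at least 2-fold were 903 towards U937 (5.79%) and 743 towards KG1A (4.76%). Each member was classed by the 3 tests. In 6346 members (40.7%) the difference remained, called in one direction with both treatments and with no called change. It was narrower with NEL in 2920 (18.7%), wider in 1822 (11.7%), closed in 1067 (6.84%), opened in 892 (5.72%) and reversed in 887 (5.69%). The other 1668 (10.7%) fell in no class.

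**Figure D1:**
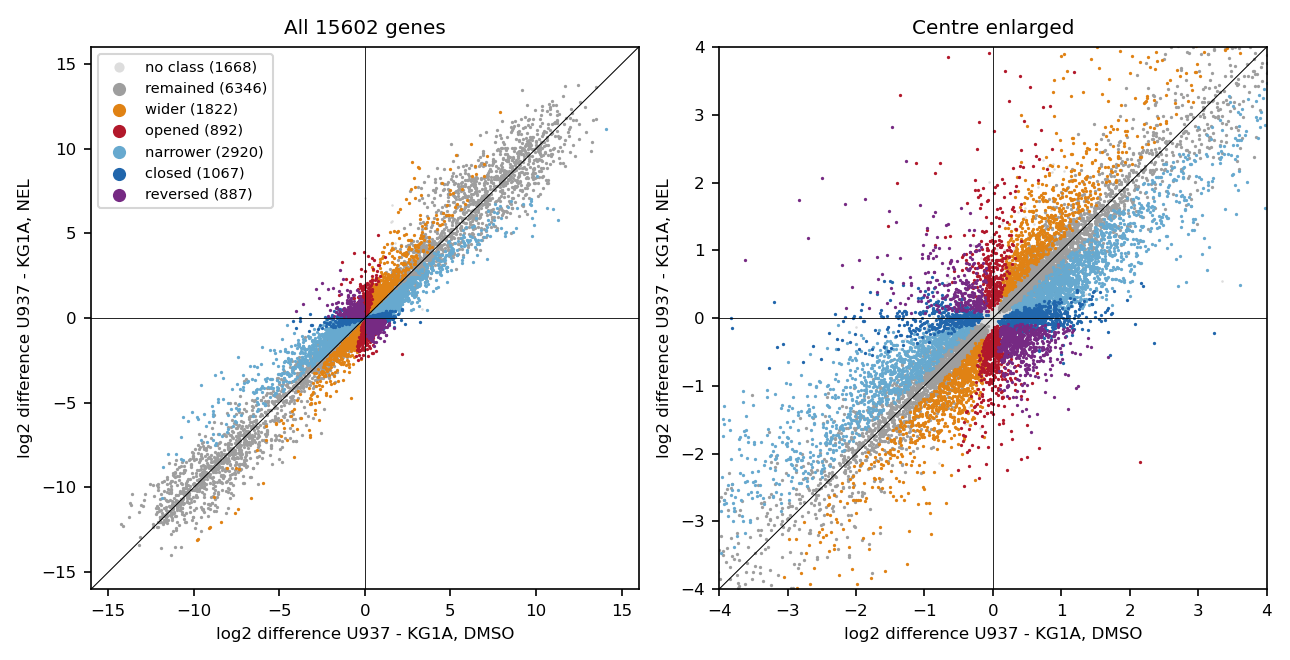
Line difference of the 15602 genes with DMSO (x axis) and with NEL (y axis), both as log2 of U937 over KG1A, with every gene on the left and the centre enlarged on the right. Each point is a gene, colours give its class, and the diagonal marks equal differences. The 6346 remained genes lie along the diagonal, and the 887 reversed genes lie in the upper left and lower right of the plot.

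Many of the differences that remained were of a gene read in one line only. With NEL, 389 members had no read in the 4 KG1A libraries and 466 had none in the 4 U937 libraries, and 292 and 344 of these had none with DMSO either. Such genes passed the filter through the other line, which fixes their direction. With 3 reads or fewer in a line the change cannot be resolved, and without these members 4697 remained in the class. On the U937 side, USP22, a deubiquitinase of the SAGA complex, stood at 145, 152, 151 and 155 CPM in U937 with NEL and at 0 in the 4 KG1A libraries, a difference of at least 2227-fold. MMP1, a collagenase, was at least 1864-fold higher in U937. MMP1 was read in U937 with DMSO at 6.35 ± 1.37 CPM and with NEL at 126 ± 8.68 CPM. On the KG1A side, CRISPLD1 stood at 181, 177, 177 and 188 CPM with NEL and at 0 in U937, a difference of at least 2806-fold. PLCB4, a phospholipase C, COBLL1 and GPSM1 were likewise at 0 in U937 with NEL and at least 2131-fold, 2044-fold and 2031-fold higher in KG1A. ABCB1, the drug efflux pump P-glycoprotein, stood at 152 ± 2.56 CPM in KG1A and held 2 reads in U937, against 151 ± 2.597 CPM and 1 read with DMSO.

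The stem and progenitor genes kept their KG1A bias. Of 29 tested, 27 were higher in KG1A with NEL and 26 with DMSO, and 15 remained while 10 narrowed. The change was called towards U937 in 9 and towards KG1A in 5 (21.7% and 27.0% of all members), with a median change of 0.45. The median difference was -5.57 with DMSO and -3.87 with NEL, a shift that depends on genes near 0 in U937: it was -4.50 and -4.14 with limma-voom, and -3.01 and -2.72 with limma-trend on log2(RPKM + 0.5). ERG, a transcription factor of blood stem cells chosen here after its values were seen, stood at 161 ± 5.55 CPM in KG1A and 0.471 ± 0.262 CPM in U937 with NEL, and its difference narrowed from -10.61 to -8.38. MEIS1 and HLF, both known from stem cells, went the other way. MEIS1, a HOX cofactor, stood at 78.97 ± 2.98 CPM in U937 with NEL and held 3 reads in KG1A. HLF stood at 0.362, 0.354, 0.737 and 0.633 CPM in KG1A and 1.99, 2.13, 2.001 and 2.38 CPM in U937 with NEL, and its difference fell from 3.71 to 2.01 (adjusted p of the change = 0.0011), with U937 moving from 6.82 ± 0.449 CPM. Of 13 HOXA genes and cofactors, 7 were higher in KG1A and 4 in U937 with NEL, and the largest differences were HOXA7 in KG1A (16.9-fold) and HOXA13 in U937 (106 ± 4.42 CPM, with 3 reads in KG1A).

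Monocyte and macrophage genes kept their U937 bias. Of 37 tested, 29 were higher in U937 with NEL and 27 with DMSO, and the median difference was 5.66 and 5.27. It was 4.78 and 5.01 with limma-voom, and 2.98 and 1.85 with limma-trend on log2(RPKM + 0.5), so its shift depends on the method. The change was called towards U937 in 8 and towards KG1A in 2, against 21.7% and 27.0% of all members. The count towards U937 was near the share of all members. The first count ran from 5 to 20 across the alternatives. ITGAX, the integrin chain CD11c of macrophages and dendritic cells (chr16:31366455-31394318), widened. It stood at 8.32, 8.31, 9.03 and 8.42 CPM in KG1A and 67.4, 64.5, 69.4 and 70.001 CPM in U937 with NEL, and at 2.96 ± 0.568 CPM and 3.93 ± 0.386 CPM with DMSO. The groups were 7.96-fold apart with NEL and overlapped with DMSO, where the called difference was 1.33-fold (change 2.58 ± 0.17, adjusted p = 4.0e-11). ITGAM, the integrin chain CD11b, differed from this. It rose in both lines, to 11.2 ± 0.939 CPM in KG1A and 53.5 ± 2.62 CPM in U937, and the difference was 1.97 with DMSO and 2.25 with NEL (adjusted p of the change = 0.22).

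CSF1R, the receptor of macrophage colony-stimulating factor, stood at 19.99, 18.5, 19.8 and 18.9 CPM in U937 and 0.452, 0.0884, 0.184 and 0.362 CPM in KG1A with NEL, and its difference widened from 4.16 to 6.10 (adjusted p = 0.04). That call was lost without any 1 of 5 KG1A libraries (DMSO 1, 2 or 3, NEL 2 or 3), with changes of 1.64 to 1.79, and with the libraries of 1 parity summed (adjusted p = 0.062). SPI1, the transcription factor PU.1, stood at 6.5996, 3.09, 5.43 and 3.26 CPM in KG1A and 152, 126, 150.01 and 128 CPM in U937 with NEL. Its difference narrowed from 5.76 to 4.92 (adjusted p = 0.016). KG1A libraries 1 and 3 were higher than the other two. The call was lost without KG1A NEL library 1, at a change of -0.61, in the even-numbered libraries alone, at -0.32, and with the libraries of 1 parity summed (adjusted p = 0.095). CYBB, the heme chain of the phagocyte oxidase, opened: it stood at 4.16, 5.13, 4.79 and 4.796 CPM in KG1A and 17.7, 17.9, 16.9 and 17.6 CPM in U937 with NEL, against 4.82 ± 0.172 and 3.999 ± 0.534 CPM with DMSO (change 2.16 ± 0.15, adjusted p = 1.9e-10). VIM, the intermediate filament vimentin, stood at 0.992 ± 0.15 CPM in KG1A and 553 ± 16.3 CPM in U937 with NEL, and its difference widened by 2.12.

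Primary granule genes were higher in U937 in 12 of 13 with NEL and 11 of 13 with DMSO. AZU1, the granule protein azurocidin, stood at 399, 413, 399 and 427 CPM in U937 with NEL and at 0, 0.177, 0.184 and 0.181 CPM in KG1A, and its difference showed no called change (adjusted p = 0.69). CTSG, the granule protease cathepsin G, narrowed from 10.03 to 8.40 (adjusted p = 1.7e-08), falling in U937 from 1254 ± 21.6 to 944 ± 32.8 CPM and rising in KG1A from 1.19 ± 0.225 to 2.78 ± 0.265 CPM. PRSS57, a granule serine protease, was the exception, 82.2-fold higher in KG1A. Lysosomal genes were higher in U937 in 31 of 38 with NEL and 30 of 38 with DMSO, and 11 of the 38 widened. GPNMB, a membrane glycoprotein of lysosomes and macrophages, widened from 5.38 to 6.73, at 896 ± 22.3 CPM in U937. S100, annexin and galectin genes were higher in U937 in 19 of 23. Of the 29 myeloid transcription factors 21 were higher in U937 with either treatment, and the median difference was 0.77 with DMSO and 1.32 with NEL.

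**Figure D2:**
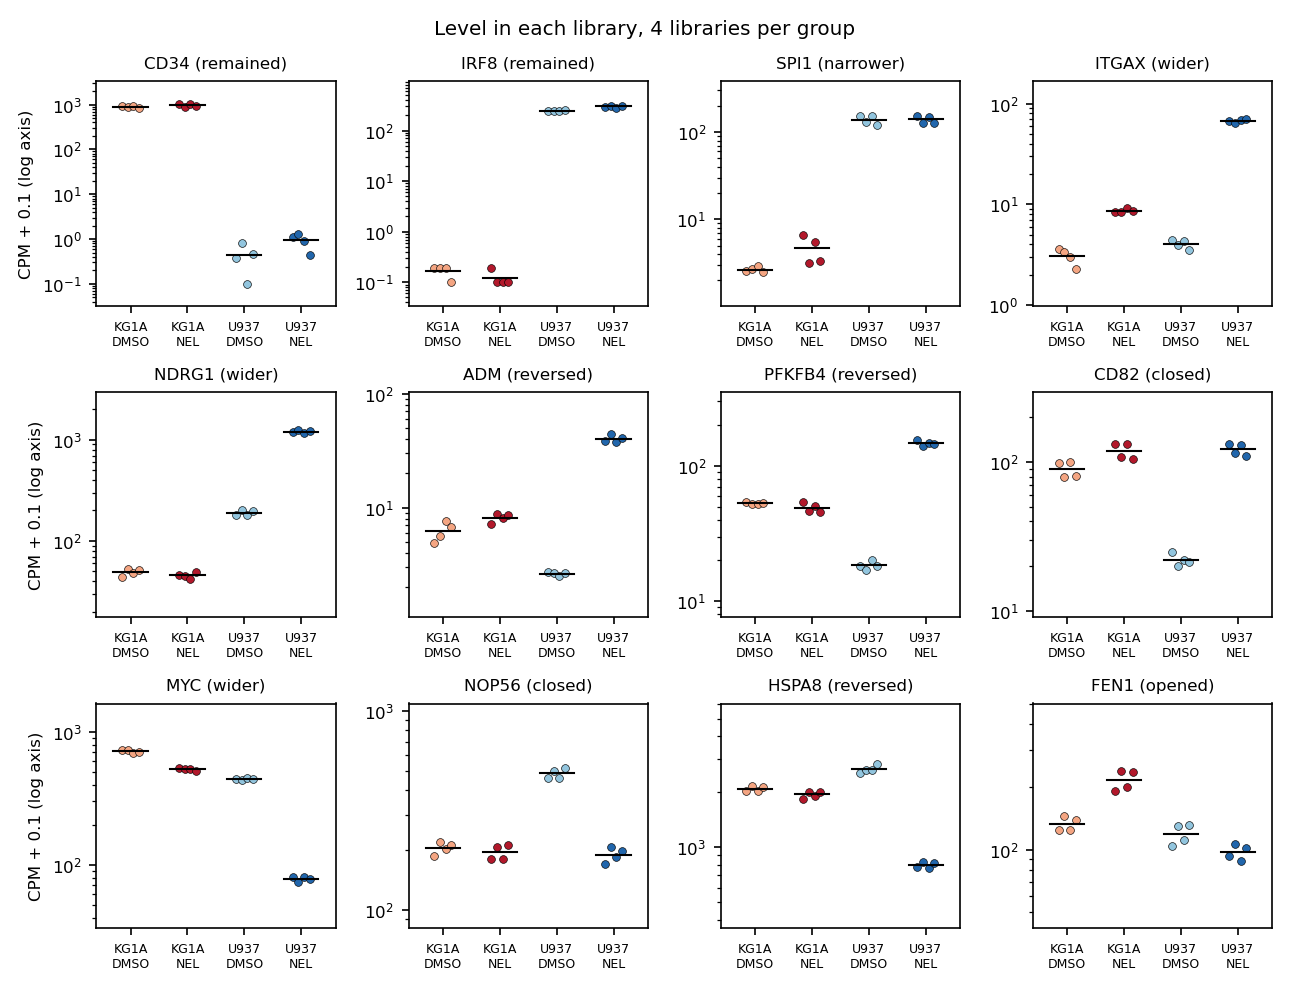
Level of 12 genes in each of the 16 libraries, as CPM + 0.1 on log axes that differ between panels. Points are libraries, bars are group means, and the class of the gene stands in each title. CD34 and IRF8 stay apart in both treatments, ADM and PFKFB4 change the higher line, and CD82 and NOP56 overlap between the lines with NEL.

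The changes that closed, opened or reversed a line difference were mostly movements of U937. Among members whose difference changed at least 2-fold, U937 moved more than KG1A in 102 of 117 that opened towards U937 and 63 of 89 that opened towards KG1A. It moved more in 98 of 110 closed genes that had been higher in KG1A and 71 of 102 that had been higher in U937. The counts were 114 of 126 and 150 of 170 for reversal towards U937 and towards KG1A. Among narrowed differences the counts were 341 of 357 genes higher in KG1A but 110 of 261 genes higher in U937, so in the last group KG1A moved more in 151. Over all members, 5144 rose (33.0%) and 5051 fell (32.4%) with NEL in U937, and 3540 rose (22.7%) and 3173 fell (20.3%) in KG1A.

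**Figure D3:**
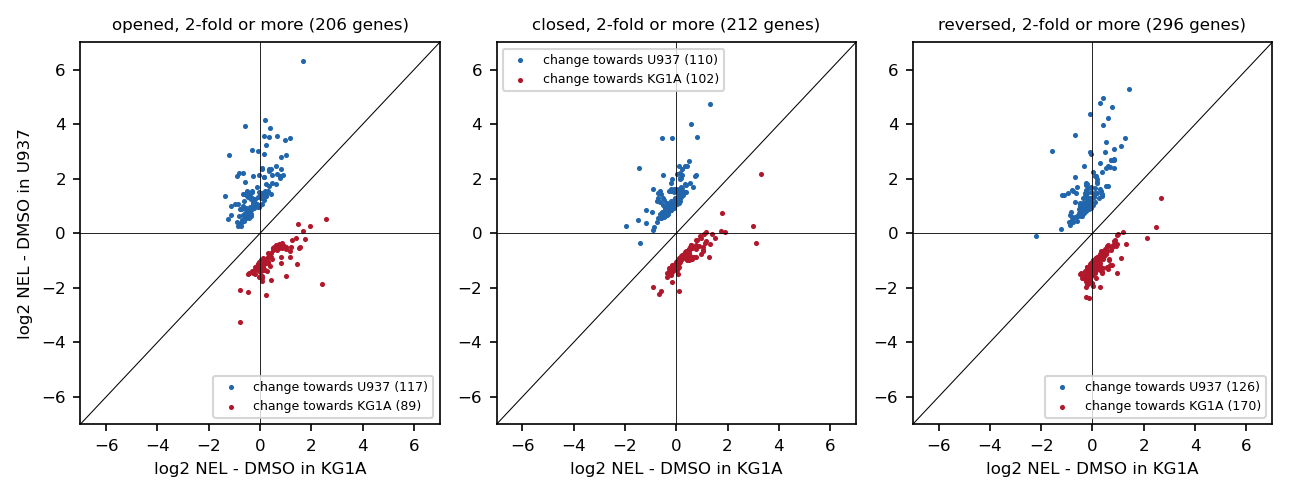
Effect of NEL in KG1A (x axis) and in U937 (y axis), as log2 of NEL over DMSO, for the members whose line difference opened, closed or reversed by at least 2-fold. Each point is a gene and the diagonal marks equal effects. Points spread along the vertical axis more than along the horizontal one, and 206, 212 and 296 genes are shown.

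The reversed class held 296 members of at least 2-fold change, 126 that became higher in U937 and 170 that became higher in KG1A. ADM, the vasodilator peptide adrenomedullin (chr11:10326227-10328944), stood at 6.13 ± 1.16 CPM in KG1A and 2.53 ± 0.0834 CPM in U937 with DMSO. With NEL it stood at 7.14, 8.66, 8.01 and 8.42 CPM in KG1A and 38.4, 44.2, 37.4 and 40.6 CPM in U937. The groups did not overlap in either treatment, and the higher line changed from KG1A (2.42-fold) to U937 (4.98-fold; change 3.59 ± 0.18, adjusted p = 7.4e-13). PFKFB4, which sets the level of a glycolysis activator (chr3:48555117-48599448), moved in the same way. It stood at 53.8, 46.1, 50.1 and 45.8 CPM in KG1A and 155, 139, 147 and 144 CPM in U937 with NEL, against 52.7 ± 0.802 and 18.3 ± 1.31 CPM with DMSO (change 3.10 ± 0.082, adjusted p = 4.7e-17). ADGRG3, an adhesion G protein-coupled receptor of granulocytes, and ZC3H6, a zinc finger protein, reversed towards U937 with changes of 3.62 and 2.74. In ADM, PFKFB4 and ADGRG3 the level of U937 rose 15.8-fold, 7.97-fold and 18.8-fold.

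In the other direction, FOSL1, a subunit of the transcription factor AP-1, fell in U937 from 21.7 ± 2.55 to 4.19 ± 0.573 CPM and stood at 14.6, 12.8, 14.2 and 12.03 CPM in KG1A with NEL. The 4 U937 libraries, at 4.67, 3.74, 4.699 and 3.65 CPM, were all below KG1A (change -2.23 ± 0.17, adjusted p = 6.4e-10). NRP1, the neuropilin co-receptor of semaphorins and VEGF (chr10:33466420-33625190), reversed through KG1A. It rose there from 3.98 ± 0.888 CPM to 21.5, 22.4, 20.9 and 23.1 CPM and showed no called effect in U937, at 11.3, 10.6, 9.92 and 11.2 CPM (change -2.25 ± 0.15, adjusted p = 1.0e-10). GPR84, a receptor for medium-chain fatty acids, moved in both lines, rising 2.19-fold in KG1A and falling 1.89-fold in U937, a change of -2.05 ± 0.21. ARL10, a small GTPase, changed by -1.96 ± 0.13, with KG1A at 14.6 ± 0.533 CPM and U937 at 5.39 ± 0.559 CPM with NEL.

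Among the closed differences, CD82, a tetraspanin of the cell surface (chr11:44585977-44641913), stood at 89.7 ± 11.4 CPM in KG1A and 21.9 ± 2.02 CPM in U937 with DMSO. With NEL it stood at 131, 108, 133 and 104 CPM in KG1A and 133, 114, 131 and 109.6 CPM in U937, with the groups overlapping and the odd-numbered libraries higher in both lines. The difference with NEL was 0.03 ± 0.087 and the change 2.06 ± 0.14 (adjusted p = 8.5e-11). YPEL5 closed in the same direction, rising in U937 from 12.2 ± 0.79 to 50.03 ± 3.66 CPM against 51.4 ± 2.75 CPM in KG1A. BTN3A1, a butyrophilin that gamma delta T cells recognise, closed from both sides, with 24.95, 24.2, 23.6 and 25.9 CPM in KG1A and 24.7, 26.04, 23.6 and 25.03 CPM in U937 with NEL against 41.6 ± 2.34 and 10.8 ± 0.947 CPM with DMSO. Of the genes that had been higher in U937, UTP14A, a factor of small ribosomal subunit assembly, fell there from 104 ± 9.44 to 30.03 ± 2.92 CPM and met KG1A at 30.9 ± 1.04 CPM. FOXRED2, an oxidoreductase of the endoplasmic reticulum, fell in U937 and rose in KG1A, to 126 ± 9.08 and 119 ± 9.44 CPM. SH2D2A, a T-cell adapter protein, rose in KG1A alone to be near U937, at 5.93 ± 1.21 against 6.16 ± 0.802 CPM (adjusted p of the U937 effect = 0.71). A difference that missed the threshold with NEL does not show that the lines were equal.

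Among the opened differences, IQCN, HAL and SPP1 were near the detection limit without the drug and were read in U937 with it. HAL, the histidine-degrading enzyme histidase, stood at 9.43, 11.5, 11.7 and 11.9 CPM in U937 and 0.633, 1.15, 0.921 and 0.995 CPM in KG1A with NEL, and at 0.955 ± 0.294 and 0.72 ± 0.132 CPM with DMSO (change 3.17 ± 0.39, adjusted p = 6.1e-07). SPP1, the secreted protein osteopontin, stood at 10.2, 11.1, 9.05 and 9.08 CPM in U937 and at 0.633, 1.59, 0.46 and 1.27 CPM in KG1A with NEL, a 9.84-fold difference (change 4.66 ± 0.81). IQCN changed by 4.51 ± 0.50. On the KG1A side, SURF2 fell in U937 from 9.68 ± 0.896 CPM to 3.29, 3.23, 2.61 and 2.29 CPM, while KG1A stood at 10.7, 11.6, 9.95 and 10.4 CPM (change -1.83 ± 0.19, adjusted p = 5.5e-08). SUSD4, a complement inhibitor, opened by a rise in KG1A from 2.68 ± 0.868 CPM to 8.77, 8.04, 11.1 and 8.23 CPM, with U937 at 2.49 ± 0.458 CPM. DYRK1B, a kinase, opened by -1.70 ± 0.25, with called effects in opposite directions in the lines.

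The narrowed differences of largest change were of genes nearly absent from one line without the drug. TMEM156, a membrane protein, held 3 reads in the 4 U937 libraries with DMSO and stood at 3.81, 3.32, 4.52 and 4.58 CPM there with NEL, against 63.3 ± 2.32 CPM in KG1A (change 5.60 ± 0.35, adjusted p = 3.4e-11). ZNF117 and ERV3-1 overlap in the genome and may share reads, and both moved alike, with changes of 5.42 and 5.12. LRG1, a secreted leucine-rich glycoprotein of neutrophils, held 1 read in KG1A with DMSO and stood at 1.18, 0.884, 1.47 and 0.724 CPM there with NEL, against 104, 82.6, 107 and 78.995 CPM in U937 (change -4.57 ± 1.13, adjusted p = 0.0019). The widened differences of largest change, such as SLC14A1 in U937 and TAL1 and IFI44 in KG1A, had 3 reads or fewer in the lower line with NEL, so their fitted changes depend on the prior count. IFI44, an interferon-induced gene, stood at 59.4, 65.1, 64.01 and 66.1 CPM in KG1A and held 3 reads in U937 with NEL, against 0.844 ± 0.426 CPM in U937 with DMSO.

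Glycolysis and hypoxia genes moved towards U937. Many of these genes are targets of the hypoxia-inducible factors, which act at promoters and enhancers with the core motif ACGTG. Of 37 tested, the line difference changed towards U937 in 26 and towards KG1A in 1, against 21.7% and 27.0% of all members. The exception was PFKFB3 (change -0.28, edgeR adjusted p = 0.005), which the DESeq2 test did not call. The median difference was 0.10 with DMSO and 0.72 with NEL, against 0.09 and -0.01 over all members. In the list, 11 members widened and 9 reversed. With NEL 29 members rose and 1 fell in U937, and 11 rose and 11 fell in KG1A. HIF1A itself, which encodes a subunit of the factor, remained 2.17-fold higher in KG1A, at 250.2 ± 4.402 against 115 ± 5.01 CPM (adjusted p of the change = 0.27).

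The following members were chosen after their values were seen. NDRG1, a hypoxia-induced gene, stood at 46.3, 44.8, 41.4 and 49.4 CPM in KG1A and 1203, 1241, 1169 and 1224 CPM in U937 with NEL, and its difference widened from 1.97 to 4.73 (adjusted p = 2.1e-16). PDK1, a kinase that restrains pyruvate oxidation, widened from 2.64 to 4.61, reaching 2072 ± 25.5 CPM in U937. SLC2A3, the glucose transporter GLUT3, reversed from -2.15 to 0.14, at 197 ± 2.81 CPM in KG1A and 217 ± 7.24 CPM in U937. HK2, a hexokinase, reversed from -0.84 to 0.92, and BNIP3L, a mitophagy receptor, narrowed from -2.27 to -0.11. ALDOC, an aldolase named by rule, stood at 48.5 ± 0.815 CPM in U937 and 1.69 ± 0.216 CPM in KG1A with NEL and widened by 1.46 ± 0.22. DDIT4, an inhibitor of the kinase mTOR induced by several stresses, reversed towards U937, at 203, 183, 190.3 and 191 CPM against 76.9, 67.1, 74.3 and 75.2 CPM in KG1A (change 2.05 ± 0.081, adjusted p = 2.9e-14).

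The promoter windows of 3 list members are shown as examples. Each gene changed at least 2-fold towards U937 and holds the motif. Not every list member of which this is true is shown, so the 3 are a selection. Members of larger change, such as SLC2A3 (2.29) and PDK1 (1.97), are not among them. The windows are the 250 bases before the RefSeq start in build GRCh38.p14, which is not the build of the counts. They are written 5′ to 3′ on the gene's strand. Capitals mark ACGTG or its reverse complement CACGT, with overlapping matches joined. P4HA1 encodes a collagen prolyl hydroxylase (chr10:73096867-73097116, minus strand), ENO2 an enolase (chr12:6914330-6914579, plus strand) and ANKRD37 an ankyrin repeat protein (chr4:185396591-185396840, plus strand).
P4HA1: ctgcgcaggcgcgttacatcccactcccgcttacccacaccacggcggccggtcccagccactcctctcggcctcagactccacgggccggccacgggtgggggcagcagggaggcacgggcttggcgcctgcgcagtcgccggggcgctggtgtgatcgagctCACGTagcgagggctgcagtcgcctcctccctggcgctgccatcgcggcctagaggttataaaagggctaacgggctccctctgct
ENO2: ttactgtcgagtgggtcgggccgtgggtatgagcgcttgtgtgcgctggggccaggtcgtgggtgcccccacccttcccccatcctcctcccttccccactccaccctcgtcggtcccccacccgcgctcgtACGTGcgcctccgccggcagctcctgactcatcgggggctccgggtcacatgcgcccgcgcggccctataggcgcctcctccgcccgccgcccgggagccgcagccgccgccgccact
ANKRD37: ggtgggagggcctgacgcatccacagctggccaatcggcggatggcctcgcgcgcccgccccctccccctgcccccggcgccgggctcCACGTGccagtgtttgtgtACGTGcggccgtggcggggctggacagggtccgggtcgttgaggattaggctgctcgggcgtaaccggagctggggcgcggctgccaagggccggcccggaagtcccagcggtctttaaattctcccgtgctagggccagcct

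P4HA1 reversed from -1.80 to 0.15, ENO2 reversed from -0.88 to 1.01, and ANKRD37 opened from 0.02 to 1.84. ENO2 stood at 42.2, 40.5, 42.7 and 37.8 CPM in KG1A and 82.98, 83.1, 81.01 and 81.1 CPM in U937 with NEL, with no overlap. Of 33 list members with a promoter in the RefSeq table, 14 (42.4%) held the motif on either strand in this window, and so did 18.7% of all 27305 promoters and 23.4% of those of members. Of the 11 with a change of at least 2-fold towards U937, 6 held it. The list was drawn up with many known targets of the factors, so its share is no test of the motif. A match describes these letters and not a bound site.

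Genes of MYC and ribosome biogenesis moved towards KG1A. MYC is a transcription factor that drives growth genes, among them those that build ribosomes in the nucleolus. Of 41 tested, the difference changed towards KG1A in 39 and was not called in the other two (27.0% of all members changed towards KG1A). The median fell from 0.72 with DMSO to -0.12 with NEL, and 14 members reversed, 13 narrowed and 7 closed. All 41 fell in U937 with NEL, while in KG1A 4 rose and 20 fell. The median effect of NEL was -1.07 in U937 and -0.15 in KG1A. MYC stood at 531, 528, 521 and 506 CPM in KG1A and 81.1, 74.7, 80.8 and 77.7 CPM in U937 with NEL, and at 712 ± 16.02 and 441 ± 7.01 CPM with DMSO. It was higher in KG1A with both treatments, by 1.61-fold and 6.63-fold (change -2.04 ± 0.05, adjusted p = 2.2e-17).

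RRS1, a ribosome assembly factor, reversed, with 27.7, 26.8, 24.6 and 28.8 CPM in KG1A and 19.2, 20.7, 16.4 and 19.5 CPM in U937 with NEL against 30.9 ± 0.771 and 68.9 ± 4.92 CPM with DMSO (change -1.67 ± 0.10, adjusted p = 1.1e-11). BYSL, bystin, needed for the small subunit, kept its U937 bias but narrowed from 18-fold to 6.5-fold. NOP56, a core protein of box C/D nucleolar particles chosen after its values were seen, closed, with 181, 207, 181 and 212 CPM in KG1A and 171, 206, 183 and 199 CPM in U937. POLR1A, the largest subunit of RNA polymerase I, became 2.01-fold higher in KG1A. The E-box CACGTG, to which MYC binds, was found in the windows of 4 of 34 list members with a promoter (11.8%), against 6.49% of all promoters and 8.80% of those of members. Of the 14 with a change of at least 2-fold towards KG1A, 1 held it. That gene was HSPE1, which is described with the heat shock genes below, so the lists are not wholly separate.

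Heat shock and chaperonin genes moved towards KG1A in 28 of 32 and towards U937 in 1, DNAJB4 (not called with the libraries of 1 parity summed, adjusted p = 0.12). The median fell from 0.74 to -0.11, and 28 members fell and 2 rose in U937, against 3 and 10 in KG1A. DNAJA1, a cochaperone of HSP70, reversed. It stood at 169.9, 191, 178 and 201 CPM in KG1A and 81.2, 89.001, 82.2 and 94.5 CPM in U937 with NEL, with no overlap, and at 142 ± 9.497 and 240.3 ± 22.4 CPM with DMSO (change -1.85 ± 0.10, adjusted p = 1.4e-12). HSPA8, the constitutive HSP70 chosen after its values were seen, reversed likewise, at 1834, 1997, 1904 and 1987 CPM in KG1A and 777, 826, 769 and 814 CPM in U937 (change -1.63 ± 0.06). HSPD1 and HSPE1, the mitochondrial chaperonin and its partner, also chosen after, narrowed to 1.51-fold and 1.36-fold higher in U937. The annotated span of HSPE1 lies within that of HSPD1, so they may share reads. HSPA1A and HSPA1B are near-identical copies whose reads cannot be assigned with certainty. The heat shock factor motif GAANNTTC lay in the windows of 9 of 29 list members with a promoter (31.0%), against 5.85% of all promoters and 4.02% of those of members. Of the 11 with a change of at least 2-fold towards KG1A, 5 held it. The list was drawn up from heat shock and chaperonin genes, so its share is no test of the motif. Whether the factor acts on these genes here was not tested. The window of DNAJA1 (chr9:33025023-33025272, plus strand) is shown for its match, in capitals.
DNAJA1: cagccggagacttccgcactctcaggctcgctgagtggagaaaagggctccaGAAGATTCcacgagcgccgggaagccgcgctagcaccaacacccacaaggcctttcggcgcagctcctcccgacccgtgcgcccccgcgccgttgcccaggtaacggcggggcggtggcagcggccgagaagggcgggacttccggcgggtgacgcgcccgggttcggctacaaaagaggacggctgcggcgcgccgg

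**Figure D4:**
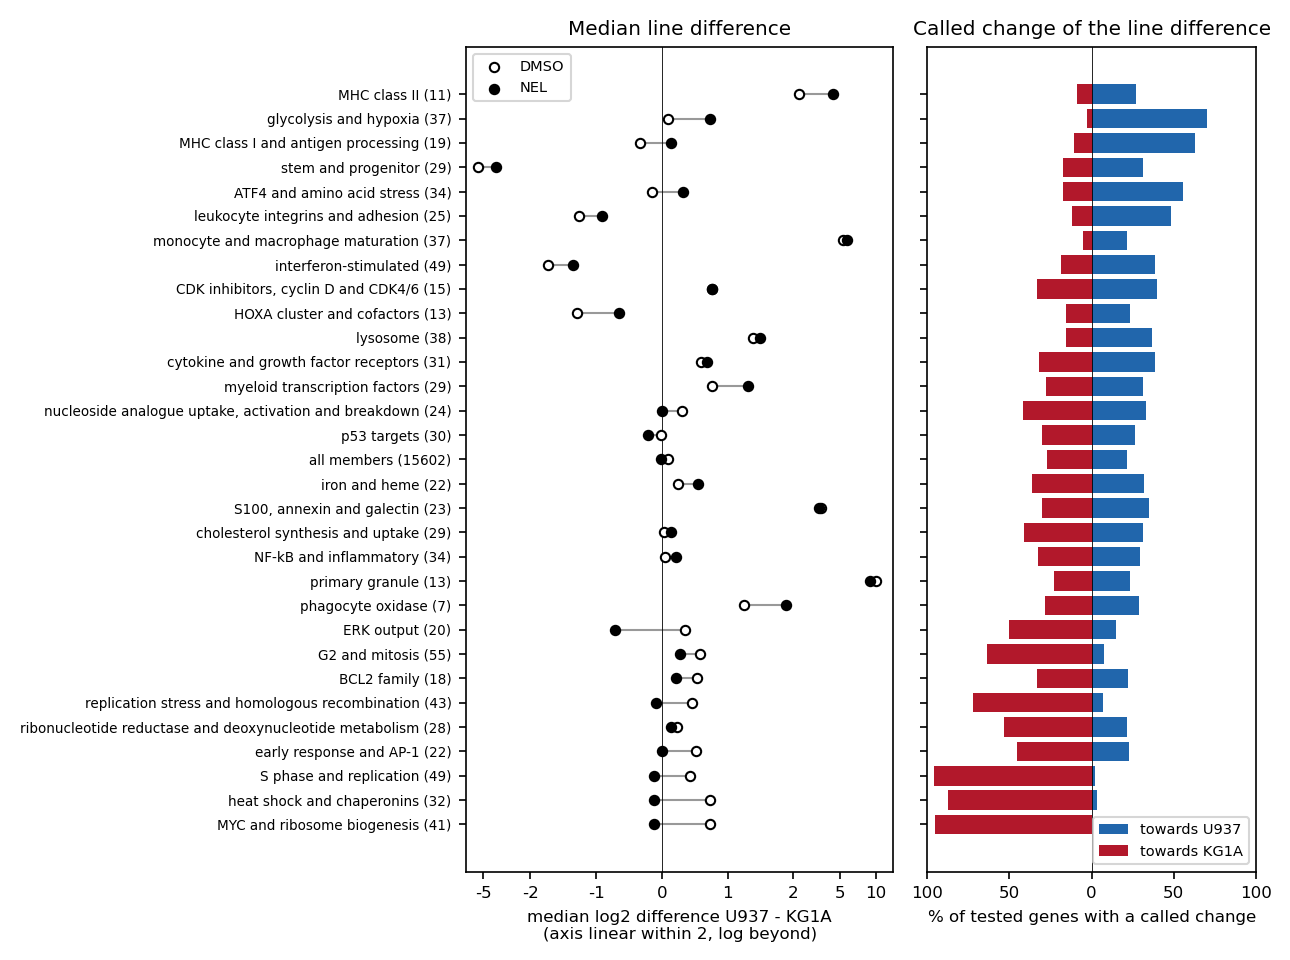
Median line difference with DMSO (open) and NEL (filled) for each gene list on the left, and the percent of tested members whose difference changed towards U937 (blue) or KG1A (red) on the right, with the number tested in brackets. The left axis is linear within 2 and logarithmic beyond. MYC and ribosome biogenesis, heat shock and S phase lie at the KG1A end, and MHC class II, glycolysis and hypoxia and MHC class I at the U937 end. Lists of other lineages are not drawn.

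DNA replication genes also moved towards KG1A, but here through KG1A. Of 49 S phase and replication genes, the difference changed towards KG1A in 47 and towards U937 in 1, CDCA7. The median fell from 0.43 to -0.11, 18 narrowed, 10 reversed, 8 opened and 7 closed. In KG1A 46 rose and 1 fell with NEL, while in U937 21 rose and 18 fell. MCM6 and MCM7, subunits of the replicative helicase, stayed on the U937 side, 3.23-fold and 3.66-fold higher with NEL, narrowed from 4.41-fold and 5.83-fold. GINS2, of the same helicase complex, reversed, with 48.4, 45.4, 46.97 and 47.2 CPM in KG1A and 32.02, 28.7, 30.4 and 35.5 CPM in U937 with NEL (change -1.25 ± 0.076, adjusted p = 1.9e-11). FEN1, the flap endonuclease of Okazaki fragments chosen after its values were seen, opened, at 192, 239.7, 199.8 and 236 CPM in KG1A and 92.7, 107, 87.97 and 101 CPM in U937 (change -0.996 ± 0.12).

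Replication stress and recombination genes changed towards KG1A in 31 of 43 and towards U937 in 3, and 33 of them rose in KG1A. CHEK1, the checkpoint kinase of stalled forks, was higher in KG1A throughout and widened from 2.73-fold to 4.06-fold, at 223 ± 10.1 against 54.9 ± 2.34 CPM with NEL. CDC25A, a phosphatase that CHK1 targets, reversed from 1.18 to -0.17. Genes of G2 and mitosis changed towards KG1A in 35 of 55 and towards U937 in 4. In U937 13 of them rose and 36 fell, in KG1A 24 rose and 16 fell, and 34 were still higher in U937 with NEL. CDKN1A, the inhibitor p21, rose in both lines and widened. It stood at 9.67, 7.69, 9.49 and 7.87 CPM in KG1A and 43.5, 32.3, 40.3 and 32.1 CPM in U937 (change 0.72 ± 0.23, adjusted p = 0.012), a call lost without KG1A DMSO library 1, where the change was 0.54, and with the libraries of 1 parity summed (adjusted p = 0.084). The 30 p53 targets went both ways, with 8 towards U937 and 9 towards KG1A. Of 15 CDK inhibitors, D cyclins and their kinases, 12 were higher in U937, while CCND2 (cyclin D2) and CDK6 were 8.92-fold and 3.3-fold higher in KG1A.

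Ribonucleotide reductase makes deoxynucleotides, and its subunits differed in their behaviour. RRM2, the S phase small subunit (chr2:10262455-10271545), stood at 472, 480.4, 471 and 483 CPM in KG1A and 1424, 1440.3, 1414 and 1423 CPM in U937 with NEL, and the groups were well apart. It rose 2.03-fold in KG1A and 2.29-fold in U937, so its difference widened by 0.17 ± 0.048 (adjusted p = 0.0052), from 2.65-fold to 2.99-fold. That small change was not called with the libraries of 1 parity summed (adjusted p = 0.12). RRM1, the large subunit, rose more in KG1A than in U937 and narrowed from 1.8-fold to 1.25-fold, at 241, 234, 248 and 242 CPM and 299, 304, 295 and 305 CPM. RRM2B, the p53-inducible small subunit, remained 1.54-fold higher in KG1A, and neither line showed a called effect. Of the 28 genes of deoxynucleotide metabolism, 15 changed towards KG1A and 6 towards U937. NME1 is among them and shares reads with NME2. CMPK2, a mitochondrial nucleotide kinase induced by interferon, narrowed from 17.5-fold to 7.41-fold higher in KG1A.

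Genes of nucleoside analogue uptake, activation and breakdown differed in part. They were listed for such analogues in general, and whether each acts on this drug was not tested. SLC29A1, the nucleoside transporter ENT1, stood at 95.8, 92.2, 100.3 and 87.4 CPM in KG1A and 222, 197, 207 and 177 CPM in U937 with NEL, and its difference narrowed from 4.04-fold to 2.14-fold (change -0.92 ± 0.088, adjusted p = 1.9e-08). DCK, deoxycytidine kinase, was higher in KG1A and narrowed, at 128, 139, 147 and 150.03 CPM in KG1A and 124, 123, 119.9 and 121 CPM in U937, where it rose 1.38-fold. DGUOK, the mitochondrial kinase for the same step, remained 1.51-fold higher in U937. SAMHD1, which degrades deoxynucleotide triphosphates, ara-GTP included, remained 3.36-fold higher in U937, at 4.29 ± 0.375 against 14.4 ± 1.01 CPM (adjusted p of the change = 0.37). PNP, the phosphorylase that cleaves guanine nucleosides, closed by a rise in KG1A, with 114, 115, 119.7 and 119.5 CPM in KG1A and 121, 121, 125 and 116 CPM in U937. SLC28A3, a concentrative nucleoside transporter, and CDA, cytidine deaminase, were at 0 or 1 read in KG1A and stood at 32.4 ± 1.18 and 44.6 ± 1.88 CPM in U937. Of 24 genes of uptake, activation and breakdown, 8 changed towards U937 and 10 towards KG1A.

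Class I antigen presentation genes moved towards U937. MHC class I molecules carry peptides to the cell surface. Of 19 genes of class I and its peptide processing, 12 changed towards U937 and 2 towards KG1A, and the median moved from -0.34 to 0.14. With NEL 11 of the 19 rose and 2 fell in U937, while 1 rose and 11 fell in KG1A. ERAP1, a peptidase that trims antigenic peptides, reversed towards U937, at 50.99, 51.8, 54.98 and 52.5 CPM in KG1A and 99.9, 97.8, 91.6 and 103 CPM in U937 (change 1.24 ± 0.066, adjusted p = 2.4e-12). NLRC5, the transactivator of class I genes, remained 5.22-fold higher in KG1A, at 249 ± 5.18 against 47.7 ± 0.882 CPM, with no called effect of NEL in either line. Of 11 class II genes, 10 were higher in U937 with NEL, and the change was called towards U937 in 3 and towards KG1A in 1, against 21.7% and 27.0% of all members. CD74, the invariant chain, and HLA-DRA held 3 reads or fewer in KG1A and stood at 157 ± 4.52 CPM (HLA-DRA) and 320.2 ± 46.1 CPM (CD74) in U937. HLA-DMB, a peptide loader, widened from 1.57 to 4.402 (adjusted p = 2.4e-05).

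Interferon-stimulated genes kept their KG1A bias, with 38 of 49 higher in KG1A with either treatment, and the median moved from -1.74 to -1.36. That shift depends on the method: the median was -1.057 with DMSO and -1.075 with NEL by limma-trend on log2(RPKM + 0.5). Of the 49 genes, 19 changed towards U937 and 9 towards KG1A. TRIM22, an antiviral ubiquitin ligase, narrowed from -7.74 to -4.20, with 61.8, 59.8, 58.9 and 67.95 CPM in KG1A and 3.72, 3.999, 2.61 and 3.14 CPM in U937. IFIT2, another antiviral gene, widened from -0.86 to -2.27. MX2, a dynamin-like restriction factor, was among the 10 that were higher in U937, by 181-fold. In leukocyte integrins and adhesion genes, 12 of 25 changed towards U937 and 3 towards KG1A. ITGAL, the integrin chain LFA-1 alpha, stood at 664, 562, 626 and 536 CPM in KG1A and 268, 236, 271 and 237 CPM in U937, and its KG1A bias narrowed from 12.5-fold to 2.36-fold (adjusted p = 1.1e-13). ICAM1, which binds it, narrowed from the other side, rising 2.14-fold in KG1A with no called effect in U937.

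Counts of changed genes in every list, here and above, stand against 21.7% of all members changed towards U937 and 27.0% towards KG1A. A count near these shares is no result about its list. ATF4 and amino acid stress genes also moved towards U937, changing towards U937 in 19 of 34 and towards KG1A in 6. Their median difference was -0.15 with DMSO and 0.32 with NEL. In U937 16 of them rose and 9 fell with NEL, while in KG1A 8 rose and 19 fell. Early response and AP-1 genes changed towards KG1A in 10 of 22 and towards U937 in 5. JUN, an AP-1 subunit, stood at 3.79 ± 0.431 CPM in KG1A and 41.5 ± 1.57 CPM in U937 with NEL, and narrowed from 5.70 to 3.45, while EGR1 reversed towards KG1A and EGR2 opened towards U937. ERK output genes changed towards KG1A in 10 of 20 (6 with DESeq2 size factors) and towards U937 in 3. NF-kB and inflammatory genes went 10 towards U937 and 11 towards KG1A of 34, and IL1B, the cytokine interleukin 1 beta, narrowed from 42.4-fold to 12.2-fold higher in KG1A. Cholesterol genes went 9 and 12 of 29, cytokine and growth factor receptors 12 and 10 of 31, iron and heme genes 7 and 8 of 22, and the BCL2 family 4 and 6 of 18. BCL2, the survival protein, stayed 4.79-fold higher in KG1A, and its relative BCL2A1 widened to 26.1-fold higher in U937. FTH1, the ferritin heavy chain, narrowed to 1.37-fold higher in KG1A with a 1.97-fold rise in U937. The change went towards U937 and KG1A in 9 and 8 of 29 myeloid transcription factors, 8 and 7 of 23 S100, annexin and galectin genes, 14 and 6 of 38 lysosomal genes, 3 and 3 of 13 primary granule genes, 2 and 2 of 7 phagocyte oxidase genes, 3 and 2 of 13 HOXA genes and cofactors, and 6 and 5 of the 15 CDK inhibitors, D cyclins and kinases. It went 2 and 2 of 11 T and NK markers and 1 and 1 of 14 B markers.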

How the data were processed

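Polyadenylated RNA of 16 libraries was sequenced. The deposited count of each gene is the number of reads that the authors assigned to it, and the submitters' processing notes list HTSeq 0.11.2, TopHat2, bcl2fastq 2.18.0.12 and the build hg19/GRCh37. The sources used here do not give the strand setting. The deposited RPKM values equal the count per gene length and library total (largest relative deviation 1.86e-07) and served for alternatives only. A symbol was found for 32562 of 34618 IDs, and 0.878% of reads fell on the rest.

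Genes were fitted with edgeR 4.0.16 (R 4.3.3) if they passed its filter (minimum count 10, minimum total 15) within the 8 NEL or the 8 DMSO libraries, and those passing within the NEL libraries were the members. One quasi-likelihood model of the 4 groups with TMM factors gave the line difference with NEL, that with DMSO, their difference and the effect in each line, with Benjamini-Hochberg adjustment over all fitted genes and a threshold of 0.05. In simulated data of 15834 genes, 100 genes per size were altered, all well read in every group, and the rest were not. The model recovered 87% and 100% of line differences with NEL of 0.5 and 1 (log2), and 69% and 93% of changes of that size. Libraries were simulated as independent, so these rates do not cover genes near 0 in a line or libraries that share a source.

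The members and the 34 gene lists were chosen with earlier results of these data known. Named genes were fixed genes of the drug and of each line, the largest differences and changes per class and the 2 largest per list and direction, with non-overlapping groups and at least 5 CPM in the higher group for those chosen over all members. Other names are said to be chosen after their values were seen, and a few genes that the rule names are not reported here. Library numbers are shared by the groups: deviations of same-numbered libraries correlated at 0.264 to 0.390 over all 24 pairs, and those of other numbers of the same parity at 0.264 to 0.401, so a fit with the number as a block was run. Alternatives were other library factors, filters, thresholds, DESeq2 1.42.0, limma 3.58.1 (voom and trend), odd or even libraries, summed libraries, each library left out, and, chosen after seeing the data, summing libraries of the same parity and leaving out genes near 0 in a line. Figures were drawn with matplotlib 3.10.9.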

Additional observations from a re-analysis of the deposited data

Results flagged for a closer look

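In 16 of 253 groups of 4 libraries, over 65 genes, the highest or lowest library stood apart from the other three beyond Dixon's critical value for 4 samples, as a share of the group's range, and chance gives this in about 1 in 20 groups. Several were groups near 0, where 1 read sets the value: IRF8 in KG1A with DMSO (lowest library, 0.980) and with NEL (highest, 1.000), CSF1R in KG1A with DMSO (lowest, 0.980), AZU1 in KG1A with NEL (lowest, 0.960), LRG1 in KG1A with DMSO (highest, 1.000), IFI44 in U937 with NEL (lowest, 0.975), and ABCB1 in U937 with DMSO (highest, 1.000) and with NEL (highest, 1.000). The others held more reads. With NEL these were ITGAX in KG1A (highest library 9.03 against 8.42 CPM, 0.852), HLA-DMB in U937 (lowest 12.3 against 13.3 CPM, 0.887), HAL in U937 (lowest 9.43 against 11.5 CPM, 0.840) and CCNB1 in KG1A (lowest 97.9 against 104 CPM, 0.948). With DMSO they were FOSL1 in KG1A (highest 18.0 against 13.97 CPM, 0.888), ADM in U937 (lowest 2.41 against 2.56 CPM, 0.842), YPEL5 in KG1A (highest 48.0 against 45.0 CPM, 0.858) and RRM1 in U937 (highest 255 against 235 CPM, 0.983).

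The effect of NEL differed between the lines, by the test of the change in edgeR, in 3390 genes towards U937 and 4218 towards KG1A. Among the reversed genes named by size, the change was 3.62 for ADGRG3, 3.59 for ADM, 3.10 for PFKFB4 and 2.74 for ZC3H6 towards U937, and -2.25 for NRP1, -2.23 for FOSL1, -2.05 for GPR84 and -1.96 for ARL10 towards KG1A.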

How the results depend on the processing

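Counts of called genes moved by over 1.5 times under 3 alternatives. With a change of at least 2-fold required, the line difference with NEL was called in 3406 genes higher in U937 and 3236 higher in KG1A, that with DMSO in 3584 and 3424, and the change in 903 towards U937 and 743 towards KG1A. The classes then held 3835 remained, 312 wider, 618 narrower, 206 opened, 212 closed and 296 reversed genes. With limma-trend on log2(RPKM + 0.5) 3057 genes were wider. Under that setting the sign of the change turned in 62 of the 7608 members called, and in 11 with log2(RPKM + 0.1). Of the genes picked by the naming rule it turned in 5, to 0.049 for B4GALT6, -0.20 for CD247, -0.24 for ESRP1, 0.074 for FCGR2A and 0.39 for OLFML2A, and the cause was not tested.

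With the library number as a replicate block, the line difference with NEL was called in 6814 and 6927 genes, that with DMSO in 7367 and 6525, and the change in 3942 towards U937 and 4823 towards KG1A. The paired fit moved no count by over 1.5 times, and the classes held 5675 remained, 2339 wider, 3488 narrower, 818 opened, 988 closed and 1114 reversed genes.

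Leaving out each library in turn gave 6226 to 6682 genes higher in U937 and 6670 to 7155 higher in KG1A with NEL, and 6806 to 7281 and 6216 to 6820 with DMSO. The change was called in 3237 to 3315 towards U937 and 4068 to 4171 towards KG1A. The classes ranged over 6422 to 6627 remained, 1696 to 1795 wider, 2763 to 2865 narrower, 860 to 942 opened, 1011 to 1145 closed and 839 to 876 reversed genes.

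With libraries 1 and 3, and 2 and 4, of a group summed, an alternative chosen after seeing the data that leaves 2 samples per group, the change was called in 2560 genes towards U937 and 3395 towards KG1A. Of the 7608 changes called with 16 libraries, 5834 were called in the same direction and none turned its sign. The wider class fell to 1205 genes, and the others held 8008 remained, 2145 narrower, 844 opened, 1065 closed and 679 reversed genes. List counts of at least 5 that moved by over 1.5 times were those towards U937 of lysosomal (9), p53 (5), iron and heme (3) and deoxynucleotide genes (3), and those towards KG1A of ERK output (6) and S100, annexin and galectin genes (4).

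Class membership near the threshold depends on the library factors: of 892 opened genes, 600 were also opened with DESeq2 size factors. List counts depend on them too. With those factors the change went towards KG1A in 6 ERK output genes and in 4 S100, annexin and galectin genes, against 10 and 7. Depth limits genes near 0 in a line, whose change of difference cannot be resolved.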
